A study of Mus musculus with 8 samples.

Results

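The immediate early genes are 10 protein-coding genes, *Fos*, *Fosb*, *Jun*, *Junb*, *Egr1*, *Ier2*, *Ier3*, *Dusp1*, *Myc* and *Klf6*, chosen by name out of the 43309 genes in the count table. Of these, 9 passed the filter on low counts that 16816 genes of the table passed, and *Fosb* did not. RNA was measured in mouse embryonic stem cells (mESCs), cultured pluripotent cells of early embryo origin, of strain J1 (129SV), grown in serum-containing medium on gelatin without feeder cells. The 8 libraries form 4 groups of 2, in which a genotype for *Zbtb24*, a zinc finger gene, is combined with an input of 1000 or 100 cells. The KO libraries are labelled *Zbtb24* knockout (1lox/1lox) and the WT libraries *Zbtb24* wild-type (2lox/+), so the WT cells also carry 1 floxed allele. The SMARTer Ultra Low RNA Kit was applied to lysed cells, with 10 cycles of PCR for 1000 cells (about 10 ng of RNA) and 18 cycles for 100 cells (about 1 ng). The paper describes more independently derived lines per genotype than the 2 libraries a group used here. The replicates are described as clones of each genotype, and the clone behind each library is not given in the sources used here. A p-value therefore measures the spread between these libraries, which may be clonal or technical.

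Immediate early genes are transcribed within minutes of a stimulus such as serum, growth factors or stress, without the need for new protein. Signals that pass through the mitogen-activated protein kinases (MAPKs) reach factors such as SRF, the ELK proteins and CREB that already sit on their promoters. Many of the genes encode transcription factors that go on to switch other genes, and several encode inhibitors that end the signal. Handling and dissociation of cells also induce them. In ES cells *Myc* is in addition expressed without an acute stimulus and is linked to self-renewal.

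The 10 members fall into 4 kinds. *Fos* (chr12:85473890-85477273, plus strand), *Fosb* (chr7:19302696-19310051, minus), *Jun* (chr4:95049034-95052222, minus) and *Junb* (chr8:84974484-84978718, minus) encode subunits of AP-1, a dimeric transcription factor. *Egr1* (chr18:34859823-34864984, plus) and *Klf6* (chr13:5861482-5870394, plus) encode zinc finger factors, and *Myc* (chr15:61985391-61990374, plus) encodes a factor that binds DNA together with MAX. *Dusp1* (chr17:26505590-26562128, minus) encodes a phosphatase that inactivates MAPKs. *Ier2* (chr8:84661331-84662852, minus) and *Ier3* (chr17:35821684-35822923, plus) are named only for their early induction, and *Ier3* is known for a role in cell survival. Positions are those of GENCODE M21 on GRCm38, the assembly that mm10 names.

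Antisense overlap touched 3 members, and since counting ignored the strand, a fragment in such a stretch could not be given to either gene. *Jun* shares 232 bp (7.28% of its exon length) with the antisense gene *Junos*, which had 0 to 5 counts per library. *Junb* shares 173 bp (7.52%) with *Prdx2*, a peroxiredoxin gene that had 5396 to 8857 counts. The overlap of *Dusp1* with *Ergic1* is 11 bp (0.332%). The other members overlap no annotated exon of another gene. In windows of 50 bp, 5.83% of those of *Jun* and 5.76% of those of *Junb* recurred in another annotated transcript, and none of the other 8 members had such a window.

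Promoters of 7 members were in the RefSeq table (build GRCm38.p6), each from 250 bp before to 50 bp after the start site. The promoters of *Myc*, *Egr1* and *Ier2* are not shown. Those of *Fos*, *Jun* and *Klf6* are printed because the levels of these genes differed between KO and WT. They are *Fos* at chr12:85473640-85473939 on the plus strand, *Jun* at chr4:95052173-95052472 on the minus strand and *Klf6* at chr13:5861239-5861538 on the plus strand. Capitals mark matches to TGACG (a half-site of the cyclic AMP response element, CRE) and to TATAAA (the TATA box). They also mark TGACNTCA, called here the CRE or Jun site, with any base at the N.
Fos: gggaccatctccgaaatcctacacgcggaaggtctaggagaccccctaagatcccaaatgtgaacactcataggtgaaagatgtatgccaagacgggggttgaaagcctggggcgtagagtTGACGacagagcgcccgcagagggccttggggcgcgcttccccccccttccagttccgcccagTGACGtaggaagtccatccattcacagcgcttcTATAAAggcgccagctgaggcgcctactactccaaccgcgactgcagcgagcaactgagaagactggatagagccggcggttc
Jun: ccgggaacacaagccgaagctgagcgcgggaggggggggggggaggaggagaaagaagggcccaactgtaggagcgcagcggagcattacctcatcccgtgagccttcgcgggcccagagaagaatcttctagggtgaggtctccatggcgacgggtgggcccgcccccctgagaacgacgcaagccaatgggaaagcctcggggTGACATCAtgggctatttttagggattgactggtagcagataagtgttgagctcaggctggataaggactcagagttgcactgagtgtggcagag
Klf6: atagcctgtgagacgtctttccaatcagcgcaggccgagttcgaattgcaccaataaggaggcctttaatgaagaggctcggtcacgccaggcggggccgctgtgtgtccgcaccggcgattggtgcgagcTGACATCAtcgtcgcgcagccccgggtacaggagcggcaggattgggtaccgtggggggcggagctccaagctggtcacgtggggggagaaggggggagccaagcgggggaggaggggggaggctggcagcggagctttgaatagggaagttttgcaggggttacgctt

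The letters were searched on both strands, and positions are those of the first base relative to the start site. The half-site stood at -129 and -66 in *Fos* and was in 4 of the 7 promoters, beside 20.8% of all 32851 promoters of the table. The CRE or Jun site was in 3 of the 7, beside 8.83% of all. Its letters were chosen after the sequences were seen, so these shares cannot show whether the site is more frequent in the members. The site stood at -45 in *Jun* and at -119 in *Klf6*, both times as TGACATCA, which does not hold the half-site. In the third promoter, that of *Dusp1*, the match overlapped a half-site. Matches to the TATA box were in 2 of the 7 and in 13.6% of all, at -33 in *Fos* and at 1, the annotated start site itself, in *Junb*. The AP-1 site, searched as TGANTCA, was in 0 of the 7 and in 7.81% of all, and the CArG box, the site of SRF, in 0 of the 7 and in 1.63% of all. A match describes letters in this window and not a bound site. Sequence further upstream and the promoters of *Myc*, *Egr1* and *Ier2* were not searched. A count of 0 therefore does not show that a gene lacks the site.

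Totals ranged from 9666985 counts in WT 100 cells replicate 1 to 16686525 in WT 1000 cells replicate 1. The spread between the 2 replicates, as a chi-square per degree of freedom over 13782 to 14587 genes a group, was 3.13 in WT 1000 cells, 3.28 in KO 1000 cells, 17.6 in WT 100 cells and 1.99 in KO 100 cells, where 1 would be sampling noise alone, so no pair agreed within sampling noise. The count of *Zbtb24*, the targeted gene, was higher in the libraries labelled KO (494 to 545) than in those labelled WT (197 to 269). A count over the whole gene does not show whether a segment of it is missing, so it does not check the labels, and KO and WT below mean the libraries so labelled. Summed levels of 8 ES cell markers lay between 5340 and 7010 cpm (counts scaled to library size) in every library, of which *Dppa5a* and *Tdgf1* gave the most. Of these 8 markers, 5 were called higher and 2 lower in KO at 1000 cells, and 4 higher and 1 lower at 100 cells, with *Klf4* (log2 ratios 1.59 and 1.12) and *Nanog* (1.13 and 0.58) higher at both.

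Markers of brain cells set the KO 100 cell libraries apart. The summed level of 8 oligodendrocyte markers was 259 and 267 cpm in them and 43.0 to 53.6 cpm in the other 6 libraries. *Mbp*, which encodes a myelin protein, had 1416 and 1360 counts there and 15 to 34 elsewhere, and the myelin gene *Cldn11* was at 0 in the other 6 libraries. In KO against WT at 100 cells, 7 of 7 tested oligodendrocyte markers were called higher (median log2 ratio 3.22). So were 6 of 8 astrocyte markers and 5 of 8 neuron markers, with 1 of each of these latter lists called lower. Over all tested genes 17.6% were called higher and 16.6% lower at that input. The summed astrocyte markers were 261 and 255 cpm against 171 to 215 elsewhere, while the summed neuron markers (735 and 760 cpm) lay within the range of the other libraries (573 to 781). Most of the neuron sum came from *Stmn2* and *Tubb3*, and the synaptic genes *Snap25* (83.6 and 77.1 cpm, 1.39 to 3.04 elsewhere) and *Syt1* (22.7 and 20.5 cpm, 0.231 to 1.48 elsewhere) did set KO 100 cells apart. The water channel gene *Aqp4* was at 0 in 5 of the other 6 libraries. The 8 fibroblast markers summed to 1.94 to 6.57 cpm and the 8 endoderm markers to 48.5 to 80.7 cpm, with *Foxa2* at 0 in all 8 libraries. The part of the brain markers in the results on KO 100 cells was not tested. The comparison of KO with WT at 1000 cells does not use these libraries, but some brain markers were called in it too. Of the tested markers, 1 of 7 for oligodendrocytes, 2 of 8 for astrocytes and 2 of 8 for neurons were higher in KO. In the same lists 0, 1 and 3 were lower. Over all tested genes 20.9% were called higher and 20.6% lower in that comparison. The oligodendrocyte marker was *Mobp* (log2 ratio 1.48 ± 0.15).

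**Figure D1:**
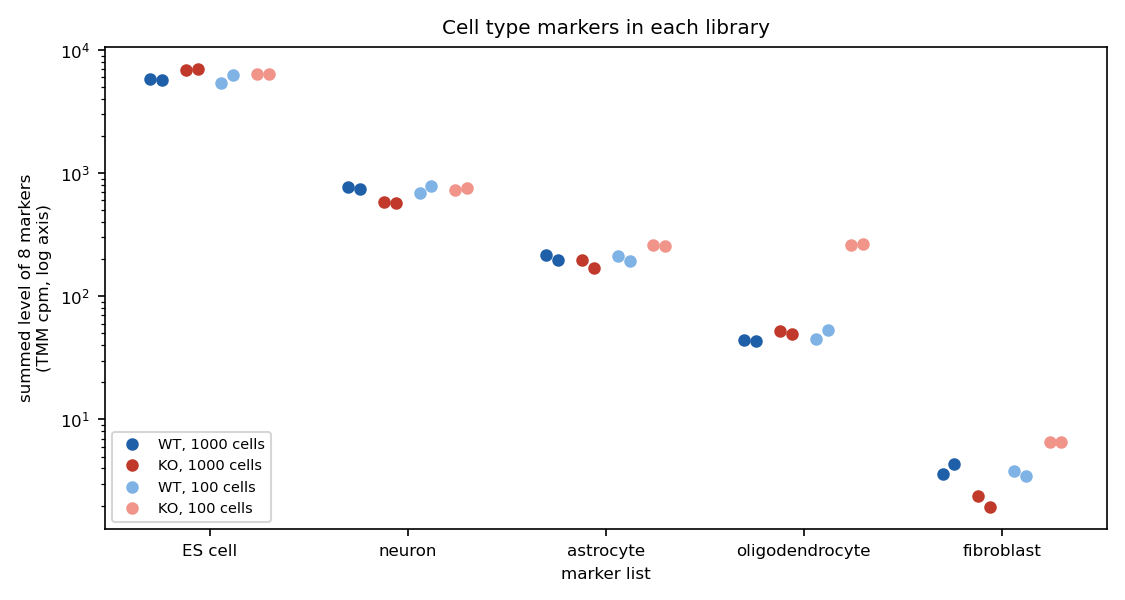
Summed level of 8 markers of each of 5 cell types (TMM-scaled cpm, log axis) in the 8 libraries, 1 point per library, coloured by group. The oligodendrocyte markers stand at 259 and 267 cpm in the KO 100 cell libraries and at 43.0 to 53.6 cpm in the others, whereas the ES cell markers lie between 5340 and 7010 cpm in all 8.

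Levels of single genes are given as cpm, the count scaled to the library size after adjustment by trimmed mean of M values (TMM). Per kilobase of exon, the order in WT 1000 cells ran from *Ier2* (70.3 cpm per kb), *Ier3* (42.6), *Dusp1* (23.9), *Myc* (16.4), *Egr1* (12.2), *Klf6* (10.5) and *Junb* (8.18) down to *Fos* (1.63), *Jun* (0.647) and *Fosb* (0.0493). The AP-1 subunits thus stood at the low end, and the values of neighbours in this order did not overlap between their 2 libraries each. *Ier2*, *Ier3* and *Dusp1* came first and *Fos*, *Jun* and *Fosb* last in all 4 groups. *Myc* took rank 4 in both WT groups and rank 7 in both KO groups, at 5.69 cpm per kb in KO 1000 cells and 5.19 in KO 100 cells. Neighbours overlapped in 3 places, *Junb* with *Klf6* in KO 1000 cells, and *Dusp1* with *Myc* and *Klf6* with *Junb* in WT 100 cells. Full-length coverage by the kit was assumed in these values. The paper, however, reported that coverage with this kit leaned toward the 3′ end of transcripts. The order of genes of unlike length is therefore uncertain. Levels of bulk libraries also cannot tell fewer expressing cells from less RNA per cell.

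**Figure D2:**
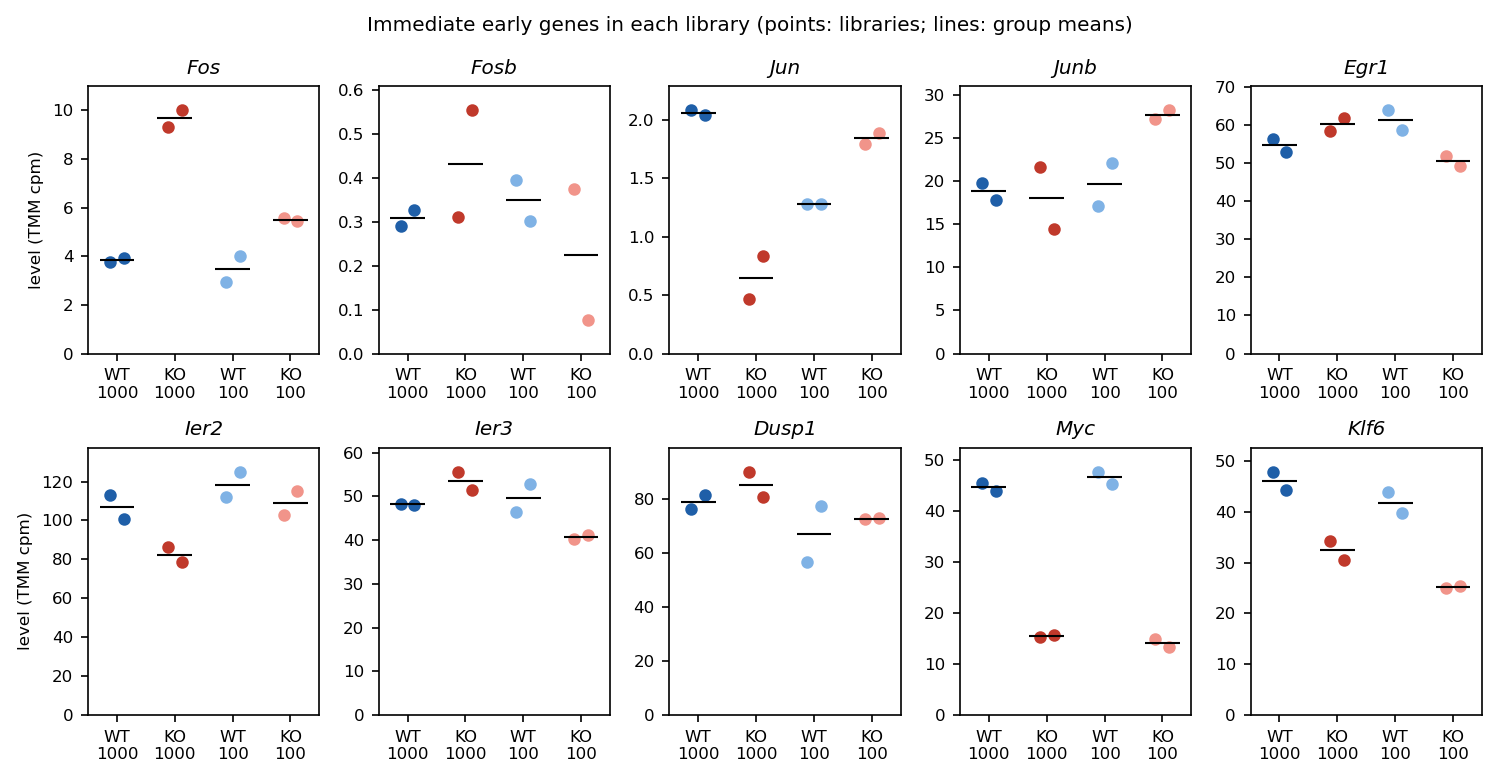
Level (TMM-scaled cpm, each panel with its own linear axis from 0) of the 10 immediate early genes in the 8 libraries. Points are libraries and lines are group means of 2. *Myc* lies at 13.4 to 15.7 cpm in the 4 KO libraries and at 43.8 to 47.6 cpm in the 4 WT libraries, and the order of the groups for *Jun* differs between 1000 and 100 cells.

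The first comparison, KO against WT at 1000 cells, asks what differs between the genotypes at the higher input. *Myc*, *Jun*, *Klf6* and *Ier2* were lower in KO and *Fos* was higher, 5 of the 9 tested members (1 higher, 4 lower). Over all tested genes 41.5% were called, 20.9% higher and 20.6% lower, at an adjusted p of at most 0.05 (quasi-likelihood test of edgeR, Benjamini-Hochberg). The share of members called was thus near that of all genes, and their median log2 ratio was -0.08 beside a median of -0.000901 over all genes. With library size alone as scaling, the calls over all genes shifted from 3514 higher and 3466 lower to 2778 higher and 4288 lower, while 5 members were called as before. The libraries of the 2 genotypes did not overlap for 7 of the 9 members and for 69.3% of all tested genes. With library size alone they did not overlap for 5 of the 9 members and for 11720 of all 16816 tested genes.

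*Myc* had 45.5 and 43.8 cpm in WT 1000 cells (786 and 536 counts) and 15.2 and 15.7 cpm in KO 1000 cells (196 and 227 counts). Both KO libraries lay well below both WT libraries. The log2 ratio was -1.53 ± 0.11 (SE), with an adjusted p of 1.22e-12 in edgeR's test, and it lay between -1.62 and -1.50 and past the threshold under all 13 alternatives.

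*Klf6*, which encodes a Krüppel-like factor, had 47.9 and 44.4 cpm in WT and 34.3 and 30.6 cpm in KO. The groups did not overlap, and the fall was smaller than that of *Myc*, with a log2 ratio of -0.51 ± 0.10 (adjusted p = 6.21e-05, edgeR). *Ier2* had 113 and 101 cpm in WT and 86.3 and 78.6 cpm in KO, again without overlap. Its log2 ratio was -0.38 ± 0.08 (adjusted p = 0.000181, edgeR).

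*Fos*, the best known partner of *Jun* in AP-1, had 3.76 and 3.92 cpm in WT (65 and 48 counts) and 9.32 and 10.0 cpm in KO (120 and 145 counts). Both KO libraries lay above both WT libraries, and the log2 ratio was 1.33 ± 0.20 (adjusted p = 2.07e-06, edgeR). *Jun* moved the other way, with 2.08 and 2.04 cpm in WT (36 and 25 counts) and 0.466 and 0.830 cpm in KO (6 and 12 counts). Its log2 ratio was -1.64 ± 0.43 (adjusted p = 0.00261, edgeR). So few counts make this ratio the least precise of the 9, and it ranged from -2.13 to -1.30 over the 12 alternatives that kept the gene, where the adjusted p reached 0.0433 at the highest.

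The other 4 tested members did not pass the threshold at 1000 cells. *Junb* had 19.8 and 17.8 cpm in WT and 21.6 and 14.4 cpm in KO, where the KO replicates lay on either side of both WT values (log2 ratio -0.08 ± 0.14, adjusted p = 0.687 in edgeR). The log2 ratios of *Egr1*, *Ier3* and *Dusp1* were 0.14 ± 0.08, 0.15 ± 0.09 and 0.11 ± 0.08. For *Egr1* and *Ier3* both KO libraries were above both WT libraries, by less than the test called (adjusted p = 0.196 and 0.165 in edgeR). With library size alone as scaling, the libraries of KO and WT overlapped for both genes. *Fosb* had 1 to 8 counts in each of the 8 libraries, too few for a comparison at this depth.

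The second comparison, KO against WT at 100 cells, uses the libraries with the brain markers. *Myc* and *Klf6* were lower in KO, and they were the members called, 2 of 9, both lower. Over all tested genes 34.2% were called, 17.6% higher and 16.6% lower (edgeR, Benjamini-Hochberg). At an unadjusted p under 0.05 there were 6 of 9 members, beside 45.5% of all genes. The median log2 ratio of the members was -0.17, beside -0.000989 over all genes. The libraries did not overlap for 7 of the 9 members and for 70.1% of all tested genes.

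*Myc* had 47.6 and 45.3 cpm in WT 100 cells (482 and 601 counts) and 14.8 and 13.4 cpm in KO 100 cells (198 and 178 counts). Both KO libraries were below both WT libraries, and the log2 ratio was -1.76 ± 0.14 (adjusted p = 5.01e-05, edgeR). It stayed between -1.83 and -1.70 and past the threshold under all 13 alternatives. *Klf6* had 43.9 and 39.8 cpm in WT and 25.1 and 25.5 cpm in KO. The groups did not overlap, and the log2 ratio was -0.77 ± 0.13 (adjusted p = 0.00234, edgeR). It was called under 12 of 13 alternatives, and without KO 100 cells replicate 1 the adjusted p was 0.0546.

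Of all tested genes, 9.24% were called lower in KO at both inputs, and among the members these were *Myc* and *Klf6*. Over the 8 libraries, the 4 KO values and the 4 WT values did not overlap for 3 of 9 members, *Fos* (higher in KO), *Myc* and *Klf6* (lower), and for 28% of all tested genes. The inputs have no library in common, but clones may be shared between them.

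*Fos* had 2.96 and 4.0 cpm in WT 100 cells (30 and 53 counts) and 5.59 and 5.44 cpm in KO 100 cells (75 and 72 counts). The KO values were again above the WT values, though the log2 ratio of 0.61 ± 0.26 did not pass the threshold (adjusted p = 0.102, edgeR). *Jun*, with 1.28 cpm in both WT libraries (13 and 17 counts) and 1.79 and 1.89 cpm in KO (24 and 25 counts), had a log2 ratio of 0.47 ± 0.41 (adjusted p = 0.393). At this input *Jun* was thus above WT in both KO libraries, where at 1000 cells it was below.

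*Junb*, *Ier3* and *Egr1* had adjusted p between 0.0511 and 0.0589 at 100 cells. *Junb* had 17.1 and 22.1 cpm in WT and 27.2 and 28.2 cpm in KO (log2 ratio 0.45 ± 0.16, adjusted p = 0.0511 in edgeR). *Ier3*, with 46.4 and 52.9 cpm in WT and 40.2 and 41.1 cpm in KO, had a log2 ratio of -0.34 ± 0.12 (adjusted p = 0.0589). *Egr1*, with 63.9 and 58.7 cpm in WT and 51.8 and 49.3 cpm in KO, had one of -0.32 ± 0.12 (adjusted p = 0.0578). The groups of these 3 genes did not overlap, and their calls depended on the alternative, at 6, 4 and 4 of 13. *Ier2* and *Dusp1* had log2 ratios of -0.17 ± 0.11 and 0.07 ± 0.14. The 2 replicates of WT 100 cells differed most for *Dusp1*, at 56.7 and 77.5 cpm. With 1 library left out, its group holds a single library, and the test takes the spread from the other group alone. That spread was 17.6 in WT 100 cells and 1.99 in KO 100 cells, as chi-square per degree of freedom. The number of calls in such fits thus follows which library was left out and is not comparable with the main value.

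**Figure D3:**
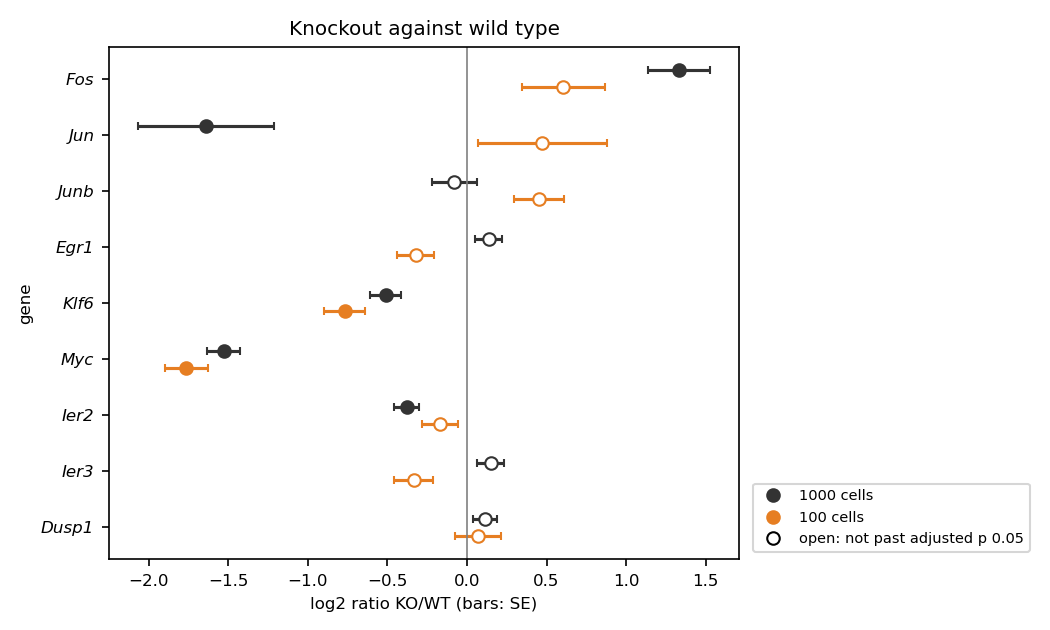
Log2 ratio of KO to WT for the 9 tested immediate early genes at 1000 cells (black) and 100 cells (orange), with bars of 1 SE, 2 libraries a group. Filled points passed an adjusted p of 0.05 in edgeR's quasi-likelihood test. *Myc* lies at -1.53 and -1.76 and *Klf6* at -0.51 and -0.77, both filled at both inputs, while *Jun* lies at -1.64 and 0.47.

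The third comparison, 100 against 1000 cells within a genotype, asks what changes with the input and the additional cycles of PCR, which cannot be told apart. In WT, 0 of the 9 members passed the threshold with edgeR, DESeq2 or limma-voom, and 0 of 9 had an unadjusted p under 0.05 in any of the 3 (the smallest was 0.106 in edgeR, 0.169 in DESeq2 and 0.0991 in limma-voom). Over all genes 0.827% were called, 0.149% higher and 0.678% lower, and 12.2% had an unadjusted p under 0.05 in edgeR. This small share rests on the spread between the 2 WT 100 cell libraries. Without replicate 1 of that group 15.6% of all genes were called (1170 higher, 1461 lower), and without replicate 2 there were 15.5% (1389 higher, 1212 lower). The median log2 ratio of the members was 0.03, beside -0.00206 over all genes. *Jun* had a log2 ratio of -0.70 ± 0.45 and *Dusp1* of -0.25 ± 0.15, the 2 furthest from 0. Without WT 100 cells replicate 2, *Dusp1* alone was called, with a log2 ratio of -0.46 (adjusted p = 0.000608, edgeR).

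In KO, 8 of the 9 members differed between the inputs (3 higher and 5 lower at 100 cells), with *Myc* the exception. Over all genes 52.1% were called, 27.3% higher and 24.8% lower (edgeR, Benjamini-Hochberg), and the members' median log2 ratio was -0.23 beside -0.00124. This comparison shares its KO 100 cell libraries with the KO against WT comparison at that input and its KO 1000 cell libraries with the other, so the values do not count as separate evidence. All of the 100 cell side consists of the libraries with the brain markers, so no value without them can be had.

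Among the AP-1 subunits, *Jun* rose from 0.466 and 0.830 to 1.79 and 1.89 cpm (log2 ratio 1.47 ± 0.42, adjusted p = 0.00368 in edgeR). *Junb* rose from 21.6 and 14.4 to 27.2 and 28.2 cpm (0.64 ± 0.12, adjusted p = 5.23e-05), and *Fos* fell from 9.32 and 10.0 to 5.59 and 5.44 cpm (-0.81 ± 0.17, adjusted p = 0.000123). The inputs did not overlap for any of these 3. *Ier2* was higher at 100 cells, at 103 and 115 cpm against 86.3 and 78.6 (0.40 ± 0.07, adjusted p = 9.55e-06).

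*Ier3* fell by 0.39 ± 0.08, *Klf6* by 0.36 ± 0.10, *Egr1* by 0.25 ± 0.08 and *Dusp1* by 0.23 ± 0.07 on the log2 scale, with adjusted p of 9.28e-05, 0.00201, 0.00577 and 0.00726 in edgeR. *Myc* was at 15.2 and 15.7 cpm at 1000 cells and at 14.8 and 13.4 cpm at 100 cells, a log2 ratio of -0.13 ± 0.12 (adjusted p = 0.389). DESeq2 called 5 of the 9 members, without *Jun*, *Egr1* and *Dusp1*.

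**Figure D4:**
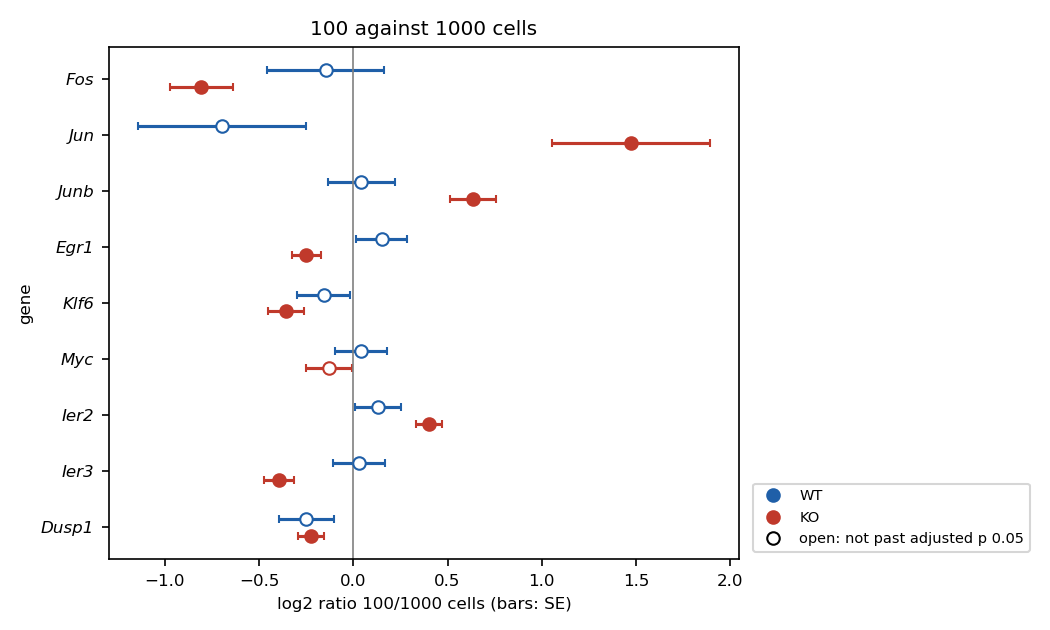
Log2 ratio of 100 to 1000 cells for the 9 tested immediate early genes in WT (blue) and KO (red), with bars of 1 SE, 2 libraries a group. Filled points passed an adjusted p of 0.05 in edgeR's quasi-likelihood test. All 9 points of WT are open and 8 of 9 points of KO are filled, with *Jun* at 1.47 and *Fos* at -0.81 in KO the furthest from 0.

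The last comparison tests whether the KO to WT ratio itself differed between the inputs, in 1 fit of all 8 libraries. *Jun* alone of the 9 members passed, with a log2 difference (100 minus 1000 cells) of 2.16 ± 0.58 and an adjusted p of 0.0218 in edgeR, beside 16.3% of all tested genes. It rests on 6 to 36 counts per library and passed under 8 of the 15 alternatives that kept the gene, with adjusted p from 0.00756 to 0.0959. Leaving out either WT 100 cell library kept the call, and leaving out any 1 of the other 6 libraries ended it (adjusted p from 0.0514 to 0.0959). *Ier3* (-0.44 ± 0.15, adjusted p = 0.0511) and *Egr1* (-0.41 ± 0.14, adjusted p = 0.0545) came next. The differences for *Myc* (-0.19 ± 0.16) and *Fos* (-0.69 ± 0.31) did not pass the test. The KO 100 cell libraries with the brain markers enter every one of these values.

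Levels of the members did not move as 1 block across the 8 libraries. Described by Pearson's r over log2(cpm + 1) in the 8 libraries, which share genotype, input and depth differences, *Myc* and *Klf6* had an r of 0.916, while *Fos* had an r of -0.843 with *Ier2* and -0.816 with *Myc*. Among 8358 genes averaging 10 cpm or more, the 3 most like *Myc* were *Liph* (r = 0.998), *Emb* (0.996) and *Nr0b1* (0.996), and *Liph*, a lipase gene, lay at 44.3 to 50.9 cpm in WT and at 17.3 to 18.9 cpm in KO. The 3 most like *Fos* were *Tor1aip2* (0.997), *Etfrf1* (0.992) and *Xlr3a* (0.992). *Jun* was most like *Meg3* (0.980), the maternally expressed noncoding RNA, then *Actr3b* (0.975) and *Iws1* (0.961). *Meg3* had 62.6 and 71.9 cpm in WT 1000 cells, 16.5 and 19.0 in KO 1000 cells, 34.1 and 40.1 in WT 100 cells and 59.7 and 62.1 in KO 100 cells, the same order of groups as *Jun*. *Egr1* was most like *Ccnyl1* (0.969), a gene without a symbol in the annotation (0.966) and *Gm10131* (0.962). The highest r among so many genes over 8 libraries is high by selection, and these values are a description.

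Of 25 related immediate early genes 24 were tested. In KO, 3 of them were higher and 7 lower at 1000 cells, and 4 were higher and 6 lower at 100 cells, with median log2 ratios of -0.14 and -0.13. For this and the lists that follow, the shares called over all tested genes are those given above, 41.5% at 1000 and 34.2% at 100 cells, and the 10 of 24 called at 1000 cells are near the former. *Atf3*, a stress-induced factor of the AP-1 group, rose in KO at both inputs, with log2 ratios of 2.41 ± 0.22 and 2.36 ± 0.39, from 1.91 and 1.96 to 11.1 and 9.55 cpm at 1000 cells and from 3.66 and 1.21 to 11 and 13.7 cpm at 100 cells. *Klf10*, a factor induced by transforming growth factor beta, also rose at both (0.68 ± 0.07 and 1.04 ± 0.10). *Ctgf*, which encodes a matricellular protein, fell at both (-1.52 ± 0.17 and -2.25 ± 0.29) and overlaps another annotated gene.

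*Jund*, the remaining member of the JUN family, was lower in KO at 1000 cells and higher at 100 cells. It had 9.95 and 10.1 cpm in WT and 6.99 and 4.77 cpm in KO at 1000 cells (log2 ratio -0.78 ± 0.19, adjusted p = 0.00122 in edgeR). At 100 cells it had 5.14 and 10.9 cpm in WT and 19.0 and 23.1 cpm in KO (1.33 ± 0.28, adjusted p = 0.0065). The difference of the 2 ratios was 2.14 ± 0.37 (adjusted p = 0.00251), and the gene overlaps another annotated gene. *Btg2*, an antiproliferative gene, was called higher in KO at 1000 cells (0.65 ± 0.12) and lower at 100 cells (-0.62 ± 0.16), and the difference of the 2 ratios passed the test (-1.23 ± 0.19, adjusted p = 0.00157 in edgeR). *Arc* fell at 1000 cells (-1.22 ± 0.22) and had a ratio of -0.12 ± 0.20 at 100 cells, which was not called. *Zfp36*, which overlaps another annotated gene, had 0.08 ± 0.17 at 1000 cells, not called, and fell at 100 cells (-1.25 ± 0.21). *Plk2* fell at both inputs (-0.46 ± 0.14 and -0.88 ± 0.18).

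Of 18 upstream regulators, which carry the signal to these promoters, 6 were higher and 5 lower in KO at 1000 cells, and 5 were higher and 2 lower at 100 cells (beside 41.5% and 34.2% of all genes), with median log2 ratios of 0.07 and -0.01. *Creb1* (0.63 ± 0.09) and the kinase gene *Rps6ka3* (0.63 ± 0.11) rose at 1000 cells, whereas *Srf* (-0.41 ± 0.14) and the MAPK kinase gene *Map2k2* (-0.85 ± 0.10) fell. *Map2k2* had a ratio of -0.04 ± 0.17 at 100 cells, and the difference of its 2 ratios passed the test (0.84 ± 0.21, adjusted p = 0.0172 in edgeR). *Creb1* (0.52 ± 0.20) and *Srf* (-0.25 ± 0.18) were not called at 100 cells. At 100 cells *Rps6ka3* rose (0.55 ± 0.15) and the stress kinase gene *Mapk14* fell (-0.92 ± 0.13), as it did at 1000 cells (-0.38 ± 0.08).

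Feedback genes of the ERK pathway, which dampen the signal or follow it, numbered 9. In KO, 1 was higher and 4 were lower at 1000 cells, and 0 were higher and 3 lower at 100 cells (beside 41.5% and 34.2% of all genes called), with median log2 ratios of -0.12 and -0.26. The 3 of 9 at 100 cells are near the share of all genes. The phosphatase genes *Dusp6* (-0.69 ± 0.09 and -0.74 ± 0.12) and *Dusp4* (-1.15 ± 0.27 and -1.12 ± 0.25) fell at both inputs. *Etv4*, a target factor, fell at 1000 cells (-0.98 ± 0.10) and was not called at 100 cells (-0.26 ± 0.13), and the difference of the 2 ratios passed the test (0.76 ± 0.17, adjusted p = 0.00937 in edgeR). *Spred1*, an inhibitor of the pathway, rose at 1000 cells (0.45 ± 0.09) and was not called at 100 cells (0.20 ± 0.16).

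Among 11 partners and relatives of MYC, 2 were higher and 3 lower in KO at 1000 cells, and 1 was higher and 3 were lower at 100 cells (again beside 41.5% and 34.2% of all genes), with median log2 ratios of 0.01 and 0.05. *Mga*, a MAX-binding repressor, fell at both inputs (-0.46 ± 0.06 and -0.36 ± 0.11), and *Mxi1*, a MAX partner that opposes MYC, rose at both (0.39 ± 0.11 and 0.60 ± 0.14). *Mxd3*, another gene of the list, fell at both (-0.61 ± 0.22 and -0.95 ± 0.25). *Mxd1* fell at 100 cells (-1.31 ± 0.36) and was not called at 1000 cells (0.005 ± 0.27). Of 8 heat shock genes, which respond to protein stress, 1 was higher and 4 were lower at 1000 cells, and 0 were higher and 3 lower at 100 cells, the latter near the 34.2% of all genes. Among them *Hspb1* fell at both inputs (-1.06 ± 0.07 and -1.20 ± 0.13). The summed level of the 8 genes lay between 7720 and 9770 cpm, most of it from *Hspa8* and *Hsp90aa1*.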

How the data were processed

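The SMARTer libraries were sequenced and processed by the authors, who removed ribosomal reads with Bowtie2 2.1.0, mapped the rest to mm10 with TopHat2 2.0.10 and used HTSeq 0.6.1 (union mode, strand ignored) to assign fragments to the genes of GENCODE M4 (versions from the submitters' processing notes, which also name CASAVA 1.8.2). The deposited values are raw fragment counts per gene, and fragments that matched several genes or places were dropped. Removal of PCR duplicates is not given in the sources used here. Without molecular identifiers, copies made by PCR count as separate fragments.

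Groups came from the genotype and cell number in the labels. Identifiers were matched to GENCODE M21 without version (42425 of 43309). Genes that reached 10 counts in any library entered the test with edgeR 4.0.16 in R 4.3.3 (TMM, quasi-likelihood F test, two-sided, Benjamini-Hochberg over 16816 genes, threshold 0.05), on the 4 libraries of each comparison and on all 8 for the interaction. Totals ranged from 9666985 to 16686525 counts. The SE of a log2 ratio was its size divided by the square root of F. The fits were also run on simulated counts, with the same spread for every gene and changes planted only in well-counted genes. That run does not cover genes at the depth of *Jun* or the unequal spread of these groups.

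Alternatives were DESeq2 1.42.0, limma-voom 3.58.1, other scalings and filters, thinning, a joint fit of the 4 groups, a block for the replicate number, and omission of single libraries. The members and lists were chosen with earlier results of these data known. All 10 members are described, and from each context list at most the 3 largest changes per direction among called genes averaging 1 cpm or more were eligible, of which some are named. *Zbtb24*, *Jund* levels the single ES cell and brain markers, and values of context genes at the input where they were not eligible were named after values were seen.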

Additional observations from a re-analysis of the deposited data

Results flagged for a closer look

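The ratio of KO to WT for *Jun* differed between the inputs, with a log2 difference of 2.16 ± 0.58 (100 minus 1000 cells, 2 libraries a group) and an adjusted p of 0.0218 in edgeR's test of the interaction. The log2 ratio was -1.64 at 1000 cells, where both KO libraries were below both WT libraries, and 0.47 at 100 cells, where both were above. *Jun* had 6 to 36 counts per library. DESeq2 gave an adjusted p of 0.0807.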

How the results depend on the processing

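With 2 libraries a group, the calls rest on a spread shared across genes, and genes at the depth of *Jun* (6 to 36 counts) and *Fosb* (1 to 8) gave imprecise ratios or none. No result changed its direction while called. A fit with 1 library left out takes its spread from the remaining pairs alone, so its counts of calls are not comparable with the main ones. Of the recomputed ratios of single members and counts over all genes, 616 kept their call or stayed within 1.5 times, 31 gained a call, 16 lost one and 24 counts over all genes moved by more (given here). For KO against WT at 1000 cells the number of members called (main value 5) kept within 1.5 times under every alternative run. At 100 cells the main value of 2 became 6 in 1 fit of all 8 libraries and 4 with the replicate block, and leaving out 1 library gave 1 to 7. For 100 against 1000 cells, the value of 0 in WT became 0 to 1 with 1 library left out, and that of 8 in KO became 5 with DESeq2. For the interaction, the value of 1 became 2 with DESeq2 size factors, limma-voom or thinned libraries, 0 with the DESeq2 test or with at least 10 counts in every library, which removes *Jun*, and 0 to 5 with 1 library left out (4 and 5 without WT 100 cells replicate 1 and 2). Over all genes, the calls of KO against WT at 100 cells (5756) ranged from 2102 to 9551 and those of the interaction (2745) from 727 to 5635 with 1 library left out, highest in both without WT 100 cells replicate 2 and lowest without KO 100 cells replicate 2, and those of the input in KO (8753) fell to 5641 with DESeq2. Those of the input in WT (139) were 79 with library size alone, 212 with DESeq2, 463 with no filter, 5 with thinned libraries, 676 in 1 fit of all 8 libraries, 285 with the replicate block, 512 with its numbers crossed (added after seeing the data) and 6 (without WT 1000 cells replicate 2) to 2631 (without WT 100 cells replicate 1) with 1 library left out. Same-numbered libraries deviated together with an r of 0.157 and 0.172 for KO against WT at 1000 and 100 cells and of -0.124 and -0.0381 for the inputs in WT and KO, so the numbers were not taken to pair the libraries.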
